A study of Mus musculus with 89 samples.

Results

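Lung gene expression was set side by side in mice without surfactant protein D (SP-D) and in wild-type mice, 24 h after both had received the same allergen. The comparison held 6 arrays from SP-D-/- mice and 4 arrays from C57BL/6 mice. These 10 arrays were taken from the 89 arrays of the series by their titles, which give strain and exposure. All mice were male and 7 to 8 weeks old. Both groups had been sensitized to the mould Aspergillus fumigatus (Af), with injections into the abdomen on days 0 and 7, and were given Af intranasally on day 13. Both had a 2 h air exposure 12 h before sampling, as the control for the ozone groups of the series. The left lung lobe was taken after the lungs had been flushed with buffer, so the RNA came from whole perfused lobe with all its cell types. It was amplified with a NuGEN kit and hybridized to Affymetrix HT Mouse430PM arrays. The values are log2 signals normalized by the authors, with the same median of 4.904 on every array. The labels name the control strain C57BL/6 and do not say that the controls were littermates of the SP-D-/- mice, nor how the SP-D-/- line was bred. Nothing in them says that arrays of a group came from separate animals, so p measures the spread between arrays, and their number limits the precision.

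SP-D is a collectin, a secreted protein whose lectin domain binds sugars on fungi, bacteria and allergens and whose collagen-like stalk is read by receptors on phagocytes. It is made by alveolar type 2 and club cells and takes part in the turnover of surfactant lipid. Mice that lack it are known for foamy, lipid-filled alveolar macrophages and for raised matrix metalloproteinases in the resting lung. In whole tissue, fewer cells of a type and less RNA per cell cannot be told apart.

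The 10 arrays were not equally alike. The array of C57BL/6 replicate 1 had a mean correlation of 0.647 with the other 9 arrays over all genes tested, and SP-D-/- replicate 1 had 0.741. The other 8 lay between 0.82 and 0.888. On the C57BL/6 replicate 1 array, 4140 of 15065 genes (27.5%) were lower and 3425 (22.7%) were higher than on all the other 9. The spike level, which is the mean log2 signal of the 9 hybridization control probe sets, was 9.82 to 12.09 in SP-D-/- lungs and 10.25 to 12.20 in C57BL/6 lungs. It was highest on replicate 1 of each group and next highest among the C57BL/6 arrays on replicate 4 (11.85). The groups did not differ in it by a two-sided exact permutation test (difference -0.36, p = 0.505), nor in the 3' minus 5' beta-actin signal, a measure of RNA length (difference -0.30, p = 0.267, adjusted over both tests 0.505). Sftpd matched the label on all 10 arrays. So did the sign of a strain index, the scaled median over 40 genes that separate BALB/c from C57BL/6 in air. The index was -1.02 to -0.92 in C57BL/6 lungs in air. At 24 h it was -0.31 on C57BL/6 replicate 1, -0.46 on SP-D-/- replicate 1 and -0.95 to -0.72 on the other 8 arrays. It does not tell SP-D-/- from C57BL/6 lungs. Elsewhere in the series 5 arrays went against their label. Values without C57BL/6 replicate 1 are given beside the results that it moved most.

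At a threshold of 0.05 on the adjusted p, 13 of 15065 genes differed between SP-D-/- and C57BL/6 lungs at 24 h (0.0863%). Of these, 12 were higher (0.0797%) and Sftpd alone was lower (0.00664%) in SP-D-/- lungs. At an unadjusted p under 0.05, 1548 genes differed (10.3%), of which 973 were higher (6.46%) and 575 lower (3.82%). The 6 SP-D-/- values lay wholly above the 4 C57BL/6 values in 80 genes (0.531%) and wholly below them in 50 (0.332%), together 130 genes (0.863%). The median difference over all genes tested was 0.04 on the log2 scale, and 747 genes differed by over 1 in either direction (627 higher, 120 lower). Without C57BL/6 replicate 1, 3 genes differed at the same threshold (0.0199%), namely Ctr9 and Nnt, which were higher, and Sftpd, and 265 genes differed by over 1 (206 higher, 59 lower). The number of genes called moved with other single arrays as well. It was 268 without C57BL/6 replicate 3 and 160 without replicate 6, the C57BL/6 arrays with the lowest spike levels, and 6 without replicate 4. Leaving out SP-D-/- replicate 4, 5 or 6 gave 6, 7 and 7 genes. In a fit that took the spike level as a covariate and left out the 5 arrays whose markers went against their label, called the spike-adjusted fit from here on, 30 genes were called (0.199%), 24 higher (0.159%) and 6 lower (0.0398%).

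**Figure D1:**
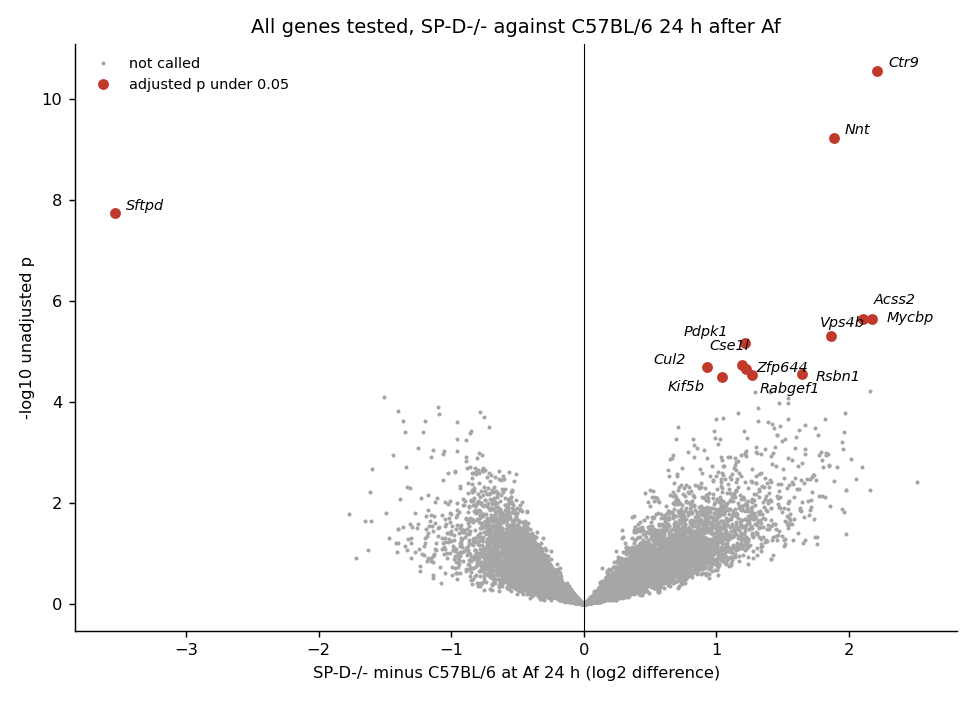
Difference between SP-D-/- and C57BL/6 lungs 24 h after Af (x axis, log2 units, positive where SP-D-/- is higher) against the -log10 of the unadjusted p (y axis) for the 15065 genes tested, 1 point a gene. The 13 genes with an adjusted p under 0.05 are named, with Sftpd at -3.54 on the left and Ctr9 at 2.21 and Nnt at 1.89 highest on the right.

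Sftpd, the disrupted gene, had a log2 signal of 6.28 at the lowest, 6.85 at the median and 7.29 at the highest in SP-D-/- lungs, against 10.28, 10.99, 9.71 and 10.49 in C57BL/6 lungs. No value of one group reached the other. The difference was -3.54 ± 0.56 (SE), or 11.6-fold lower in SP-D-/- lungs, with an adjusted p of 9.19e-05 by limma. The signal in SP-D-/- lungs stood above 4.45, the 40th percentile of all values, which served here as the presence level and is not a detection call. Whether the probes of Sftpd lie in the disrupted part of the gene is not given in the sources used here. Sftpd was lower in SP-D-/- lungs in all of the 5 other exposures, by 3.84 in air, 4.64 after ozone, 2.90 at 96 h after Af with ozone, 3.44 at 168 h after Af and 4.08 at 168 h with ozone. At 96 h 1 SP-D-/- array and 1 C57BL/6 array were among the 5 that went against their label, and without these the difference there was -3.47.

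Sftpa1, the gene of surfactant protein A and the collectin neighbour of Sftpd on chromosome 14, did not pass the test. It had 10.67, 11.55 and 12.14 (lowest, median, highest) in SP-D-/- lungs, against 11.82, 12.96, 11.98 and 12.59 in C57BL/6 lungs. The groups overlapped, with a difference of -0.84 ± 0.42 and an adjusted p of 0.483. The gene's other probe set differed by -0.34. In the spike-adjusted fit the difference was -1.01 ± 0.22 with an adjusted p of 0.0189. There Sftpa1 was also called lower in SP-D-/- lungs in air (-1.30), after ozone (-1.02), at 96 h with ozone (-0.95) and at 168 h with ozone (-1.98). At 168 h it was at -0.88 and did not pass the test (adjusted p 0.213). In the fit of all arrays it was called lower after ozone (-1.68) and at 168 h with ozone (-2.28). That fit did not call it in air (-1.26, adjusted p 0.732), at 96 h with ozone (-0.24, adjusted p 0.676) or at 168 h (-1.22). Of the 12 surfactant and alveolar type 2 genes tested, only Sftpd had an unadjusted p under 0.05 (10.3% of all genes did). The list had a median difference of -0.14, against 0.04 for all genes, and 3 of the 12 lay above 0. Sftpc, the surfactant protein C gene that marks type 2 cells (chosen after its values were seen), ranged from 12.07 to 12.96 in SP-D-/- lungs and from 12.41 to 12.80 in C57BL/6 lungs, with a difference of 0.10 ± 0.23 (95% interval -0.36 to 0.56; 0.06 without C57BL/6 replicate 1). Mbl1, a mannose-binding collectin next to Sftpd, differed by -0.18 ± 0.35. Among the 10 tested genes on each side of Sftpd on the chromosome, none was called. Of these 20, 1 had an unadjusted p under 0.05, against 10.3% of all genes. That gene was Ang5, an angiogenin-family ribonuclease, at 1.05 ± 0.34 (chosen after its values were seen), and its difference in air was 1.25. The 13 called genes lay on 10 chromosomes, and Sftpd was the only one on chromosome 14. Loxl2, described below, also lies on chromosome 14, outside those 20 neighbours. It was called in air and, at 24 h, only in the spike-adjusted fit of these 2 fits.

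**Figure D2:**
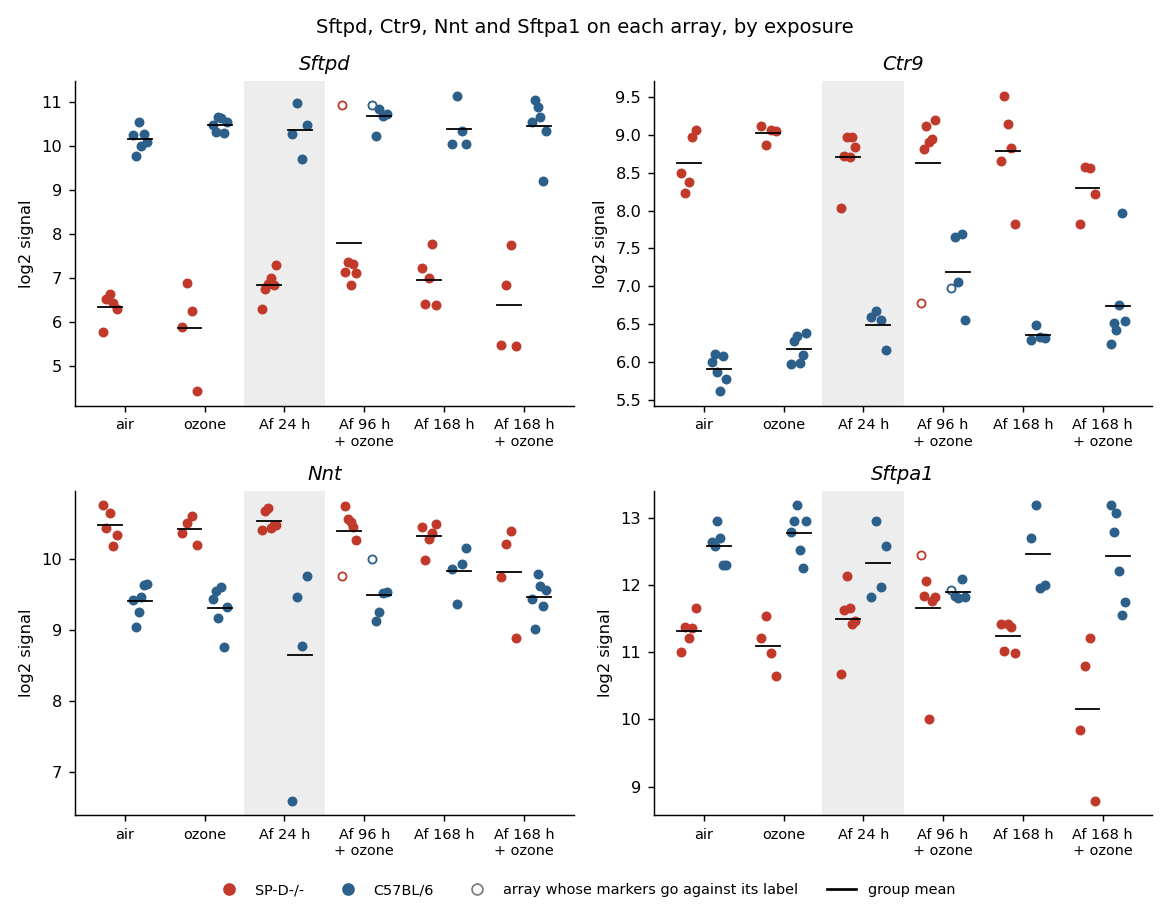
Log2 signal (y axis) of Sftpd, Ctr9, Nnt and Sftpa1 on every SP-D-/- (red, left) and C57BL/6 (blue, right) array of the 6 exposures (x axis), 1 point an array, with group means as black bars and the 24 h groups shaded. Open points are arrays whose markers went against their label. At 24 h Sftpd lay between 6.28 and 7.29 in SP-D-/- lungs and between 9.71 and 10.99 in C57BL/6 lungs, and Ctr9 and Nnt lay higher in SP-D-/- lungs with no overlap.

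Ctr9 encodes a subunit of the PAF1 complex, which travels with RNA polymerase II during transcription. Its log2 signal was 8.03, 8.78 and 8.98 (lowest, median, highest) in SP-D-/- lungs, against 6.6, 6.67, 6.55 and 6.15 in C57BL/6 lungs. All 6 SP-D-/- values lay above all 4 C57BL/6 values, and C57BL/6 replicate 1 was not the lowest. The difference of 2.21 ± 0.28 had an adjusted p of 4.14e-07, and without C57BL/6 replicate 1 it was 2.25. It rested on 1 of the gene's 4 probe sets; the other 3 differed by -0.45 to -0.02. Ctr9 was called higher in SP-D-/- lungs in each of the 5 other exposures too, by 2.72 in air, 2.85 after ozone, 1.44 at 96 h with ozone, 2.44 at 168 h and 1.56 at 168 h with ozone. The difference at 24 h minus that in air was -0.51 (95% interval -1.28 to 0.27).

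Nnt encodes nicotinamide nucleotide transhydrogenase of the inner mitochondrial membrane, which makes NADPH for the defence against peroxides. The gene is known to be truncated in one widely used C57BL/6 substrain, and the labels do not give the substrain. Its log2 signal was 10.42, 10.48 and 10.72 in SP-D-/- lungs, against 6.6, 9.47, 8.77 and 9.76 in C57BL/6 lungs. The groups did not overlap and the difference was 1.89 ± 0.27 (adjusted p 4.40e-06), but C57BL/6 replicate 1 stood 2 units or more below the others. Without it the difference was 1.20, with an adjusted p of 0.00275. Both probe sets of the gene differed the same way, by 1.89 and 2.15. Nnt was also called in SP-D-/- lungs after ozone (1.11) and at 96 h with ozone (0.90). In air the difference was 1.06 with an adjusted p of 0.0814, and it was 0.49 at 168 h and 0.35 at 168 h with ozone.

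Loxl2, a lysyl oxidase that crosslinks collagen, had 3.40, 5.48 and 6.36 in SP-D-/- lungs, against 3.13, 4.26, 3.02 and 3.50 in C57BL/6 lungs. The groups overlapped, since SP-D-/- replicates 1 and 5 lay among the C57BL/6 values. All 4 C57BL/6 values, and all C57BL/6 values in air (3.01 to 3.70), lay below the presence level of 4.45, so the sizes of these differences rest on signals near the bottom of the scale. The difference of 1.67 ± 0.44 did not pass the test (adjusted p 0.111), and in the spike-adjusted fit it was 1.43 with an adjusted p of 0.0367. In air the corresponding difference was 2.32, with an adjusted p of 0.000944. Ctr9, Sftpd and Nnt were thus the genes called both at 24 h and in another exposure; the other 10 called genes were called at 24 h and in none of the 5 others.

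These 10 genes were higher in SP-D-/- lungs by 0.93 to 2.17. In each of them the lowest of the 4 C57BL/6 arrays was replicate 1, with signals from 3.69 to 7.81, and the next lowest was replicate 4, the arrays with the highest and second highest spike level of that group. SP-D-/- replicate 1, with a spike level of 12.09, was the lowest of its group in Vps4b and Kif5b and the highest in Zfp644. Without C57BL/6 replicate 1 the differences were 0.54 to 1.44, all in the same direction, and none was called (adjusted p 0.9999 for each). Each kept an unadjusted p under 0.05, as did 1.78% of all genes in this direction. The 10 genes had been picked on these same arrays, so that share is no measure for them and the small p is no separate support. All 10 were called in the spike-adjusted fit, which kept C57BL/6 replicate 1. In the spike-adjusted fit without that array, the 3 genes called were Sftpd, Ctr9 and Nnt.

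Mycbp, which encodes a partner of the Myc protein, had 8.87, 9.17 and 9.76 in SP-D-/- lungs, against 4.77, 7.82, 7.10 and 8.57 in C57BL/6 lungs. Its groups did not overlap with or without replicate 1, and the difference was 2.17 ± 0.42 (adjusted p 0.00674), or 1.41 without that array. In air Mycbp had a mean of 7.63 ± 0.51 (SD, n = 5) in SP-D-/- lungs and 7.34 ± 0.14 (SD, n = 6) in C57BL/6 lungs. Acss2, an acetyl-CoA synthetase, had 7.08, 7.45 and 8.88 in SP-D-/- lungs, against 3.69, 6.74, 5.08 and 7.26 in C57BL/6 lungs, so that replicate 6 of C57BL/6 lay within the SP-D-/- range. The difference was 2.11 ± 0.41 (adjusted p 0.00674). SP-D-/- replicates 1 and 2 were highest, at 8.67 and 8.88, as they were in Fabp4 and Retn of the fat list. Whether fat tissue took part in this difference was not tested. Vps4b, an ATPase that takes apart membrane-sorting (ESCRT) complexes, had 7.96, 9.05 and 9.25 in SP-D-/- lungs, against 4.69, 8.60, 6.58 and 8.28 in C57BL/6 lungs, with some overlap and a difference of 1.86 ± 0.38.

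Zfp644, a zinc-finger gene, had the narrowest spread of C57BL/6 values of the 10: 4.89, 5.91, 5.23 and 5.50, all below the 6.43, 6.63 and 6.80 of SP-D-/- lungs. The difference was 1.22 ± 0.27 (adjusted p 0.0326), and 1.06 without C57BL/6 replicate 1. Its probe sets did not all move alike, since 5 of 6 were above 0 and 1 was at -0.49. Rsbn1 (1.64 ± 0.37), Rabgef1, which regulates endosomal traffic (1.27 ± 0.29), and Pdpk1, the kinase that activates Akt (1.21 ± 0.25), also had groups that did not overlap. Cse1l, a nuclear export receptor (1.19 ± 0.26), Kif5b, a kinesin motor (1.04 ± 0.24), and Cul2, the scaffold of a ubiquitin ligase (0.93 ± 0.20), had groups that did.

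**Figure D3:**
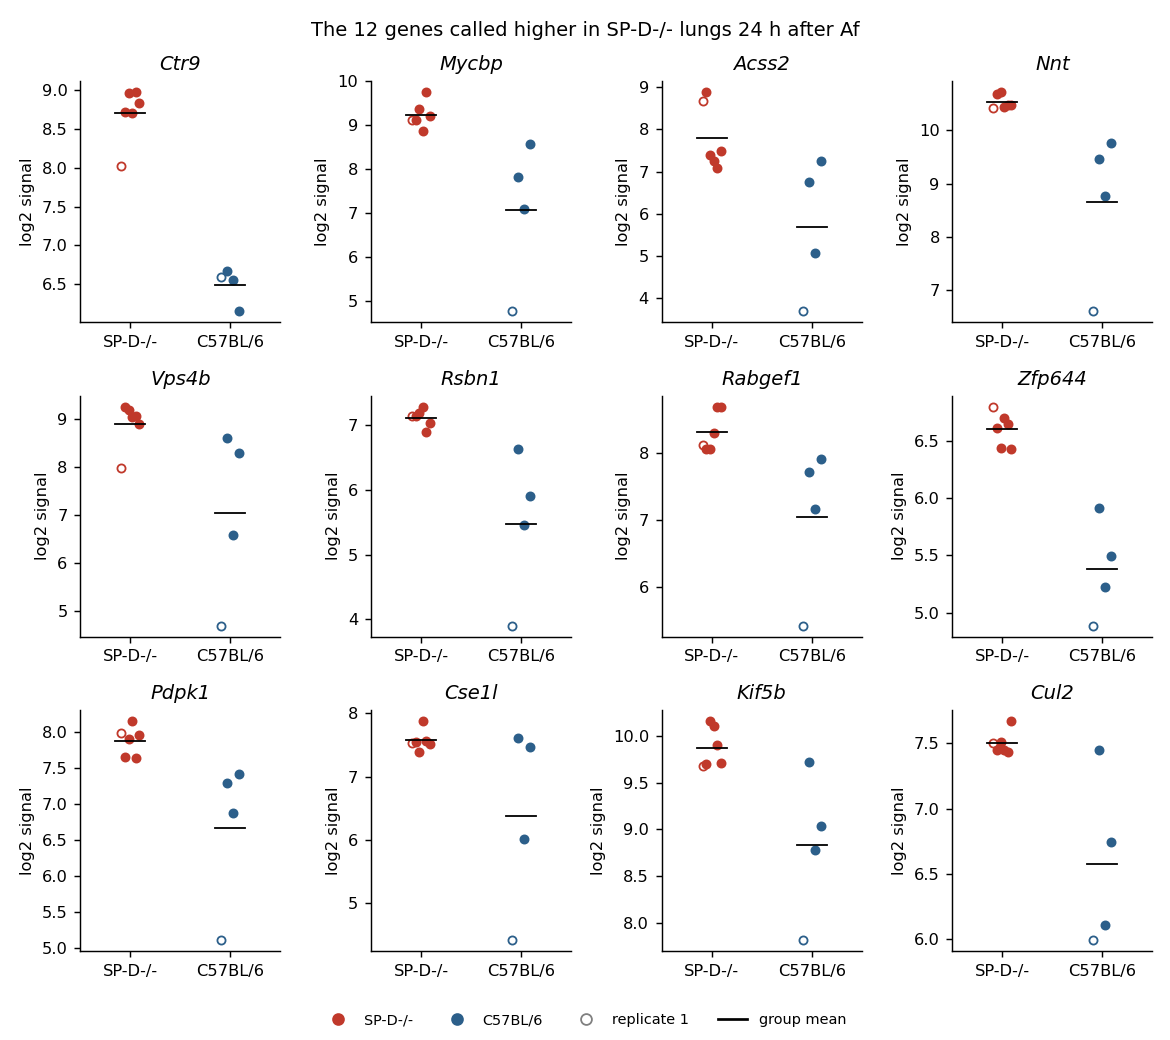
Log2 signal (y axis, a scale of its own in each panel) of the 12 genes called higher in SP-D-/- (red, left) than in C57BL/6 lungs (blue, right) 24 h after Af, 1 point an array, with group means as black bars and replicate 1 of each group as an open point. In Mycbp the open C57BL/6 point lies at 4.77 and the other 3 between 7.10 and 8.57, while in Ctr9 all 4 lie between 6.15 and 6.67.

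Most genes called between the strains in air were not called at 24 h. In air, 10 genes were called (0.0664%), of which 9 were higher (0.0597%) and 1 was lower (0.00664%) in SP-D-/- lungs. Of these 10, Sftpd and Ctr9 were also called at 24 h, Loxl2 differed at 24 h without passing the test, and the 24 h differences of the other 7 ran from -0.62 to 0.53. These 7 were Saa3, Retnla, Fgg and Fga (2 fibrinogen chains), Ly6i, Mbl2 (a mannose-binding collectin) and Mfsd2a (a transporter of lysophospholipids). Saa3 encodes serum amyloid A3, an acute-phase protein made in the lung. It had 6.71, 8.52 and 9.19 in air-exposed SP-D-/- lungs at the lowest, median and highest, against 4.05, 4.77 and 6.43 in air-exposed C57BL/6 lungs, a difference of 3.31 ± 0.52 (adjusted p 7.67e-05). At 24 h it had 8.86, 9.91 and 10.87 in SP-D-/- lungs, against 6.31, 10.93, 9.71 and 10.66 in C57BL/6 lungs. Of the 4 C57BL/6 arrays, 3 lay within or just above the SP-D-/- range, and replicate 1 lay below all SP-D-/- arrays and within the range of the C57BL/6 arrays in air. The difference at 24 h was 0.41 ± 0.56 (95% interval -0.70 to 1.52), and -0.62 without C57BL/6 replicate 1.

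Retnla encodes Fizz1, a secreted protein of alternatively activated macrophages and airway epithelium that IL-4 and IL-13 raise through STAT6. It had 10.91, 11.61 and 11.69 in air in SP-D-/- lungs, against 9.44, 9.66 and 10.19 in C57BL/6 lungs (difference 1.65 ± 0.29, adjusted p 0.000944). At 24 h it had 12.20, 12.55 and 12.96 in SP-D-/- lungs, against 11.36, 13.09, 12.33 and 12.96 in C57BL/6 lungs. The groups overlapped almost wholly, and the difference was 0.19 ± 0.31 (95% interval -0.43 to 0.81), or -0.17 without C57BL/6 replicate 1. These values approach the top of the scale, where the highest value in the files is 13.5.

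The start-site windows of these 2 genes are shown because Saa3 and Retnla carried a large strain difference in air and none that passed the test at 24 h. Each runs from 250 bases before to 50 bases after the annotated start, from RefSeq on GRCm38.p6, at chr7:46715627-46715926 (minus strand) for Saa3 and chr16:48842359-48842658 (plus strand) for Retnla. Capitals mark matches on either strand to TTGCNNAA, a C/EBP-type motif, and to TTC and GAA 4 bases apart, a STAT-type motif. The matches do not overlap.
Saa3: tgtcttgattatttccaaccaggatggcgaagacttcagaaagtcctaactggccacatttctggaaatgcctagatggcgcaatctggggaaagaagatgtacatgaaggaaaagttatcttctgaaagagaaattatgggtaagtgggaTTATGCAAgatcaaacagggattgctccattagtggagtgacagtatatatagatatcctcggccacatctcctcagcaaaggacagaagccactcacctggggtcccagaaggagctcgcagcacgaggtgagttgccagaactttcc
Retnla: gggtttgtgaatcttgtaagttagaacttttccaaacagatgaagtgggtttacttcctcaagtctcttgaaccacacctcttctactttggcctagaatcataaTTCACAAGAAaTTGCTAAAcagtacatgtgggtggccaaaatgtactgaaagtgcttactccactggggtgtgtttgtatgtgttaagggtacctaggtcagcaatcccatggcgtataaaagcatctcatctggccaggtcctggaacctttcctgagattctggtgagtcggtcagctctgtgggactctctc
The Saa3 window held 1 C/EBP-type match, from 99 to 92 bases before the start. The Retnla window held 1 STAT-type match, 145 to 136 bases before the start, and 1 C/EBP-type match, 134 to 127 bases before it. Of 32544 distinct windows of this length, 10.8% held the C/EBP-type and 6.98% the STAT-type letters. A match is a run of letters and was not tested as a binding site.

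The change of the strain difference between air and 24 h was tested as the difference at 24 h minus the difference in air, and by limma 0 of 15065 genes passed (0%). At an unadjusted p under 0.05 there were 564 (3.74%). The 3 genes with the smallest p were Fgg, Ly6i and Vps4b. Fgg, a fibrinogen chain made mainly by liver, differed by -0.53 at 24 h and by 2.03 in air (change -2.56, adjusted p 0.326). In air its SP-D-/- values spread from 3.68 to 8.53 with a median of 5.28, and the C57BL/6 values from 3.63 to 4.91, while at 24 h all 10 arrays lay between 3.47 and 5.12, and the difference was -0.28 without C57BL/6 replicate 1. Ly6i, a Ly6-family surface protein gene, had 3.62, 4.47 and 5.26 in SP-D-/- lungs at 24 h, against 5.07, 6.25, 3.98 and 5.08 in C57BL/6 lungs. Its change was -2.24 with an adjusted p of 0.326, and in the spike-adjusted fit it was -2.39 with an adjusted p of 0.00266. For Saa3 the change was -2.90 (adjusted p 0.916), and without C57BL/6 replicate 1 it was -3.93 with an adjusted p of 0.00695, the only gene called there. Vps4b was 1.86 higher in SP-D-/- lungs at 24 h, against -0.18 in air, a change of 2.04 with an adjusted p of 0.916.

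Slc26a4 and Timp1, chosen after their values were seen, resembled Saa3 in that C57BL/6 replicate 1 lay below all the other arrays at 24 h. The SP-D-/- arrays did not keep the same order in these genes. Slc26a4 encodes pendrin, the airway anion exchanger that IL-13 raises. It had 9.0, 9.61 and 10.73 in SP-D-/- lungs at 24 h, against 5.67, 10.63, 9.78 and 10.51 in C57BL/6 lungs, where C57BL/6 replicate 1 again lay apart. Its difference was 0.57 ± 0.60, or -0.59 without that array. In air it had 6.6, 6.64 and 6.86 in SP-D-/- lungs, against 4.88, 5.0 and 5.31 in C57BL/6 lungs, with no overlap, though the difference of 1.68 did not pass the test. Timp1, the inhibitor of matrix metalloproteinases, had 7.53, 8.75 and 10.57 in SP-D-/- lungs at 24 h, against 5.14, 10.50, 9.24 and 10.13 in C57BL/6 lungs. Its difference was 0.25 ± 0.64, or -0.95 without C57BL/6 replicate 1.

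**Figure D4:**
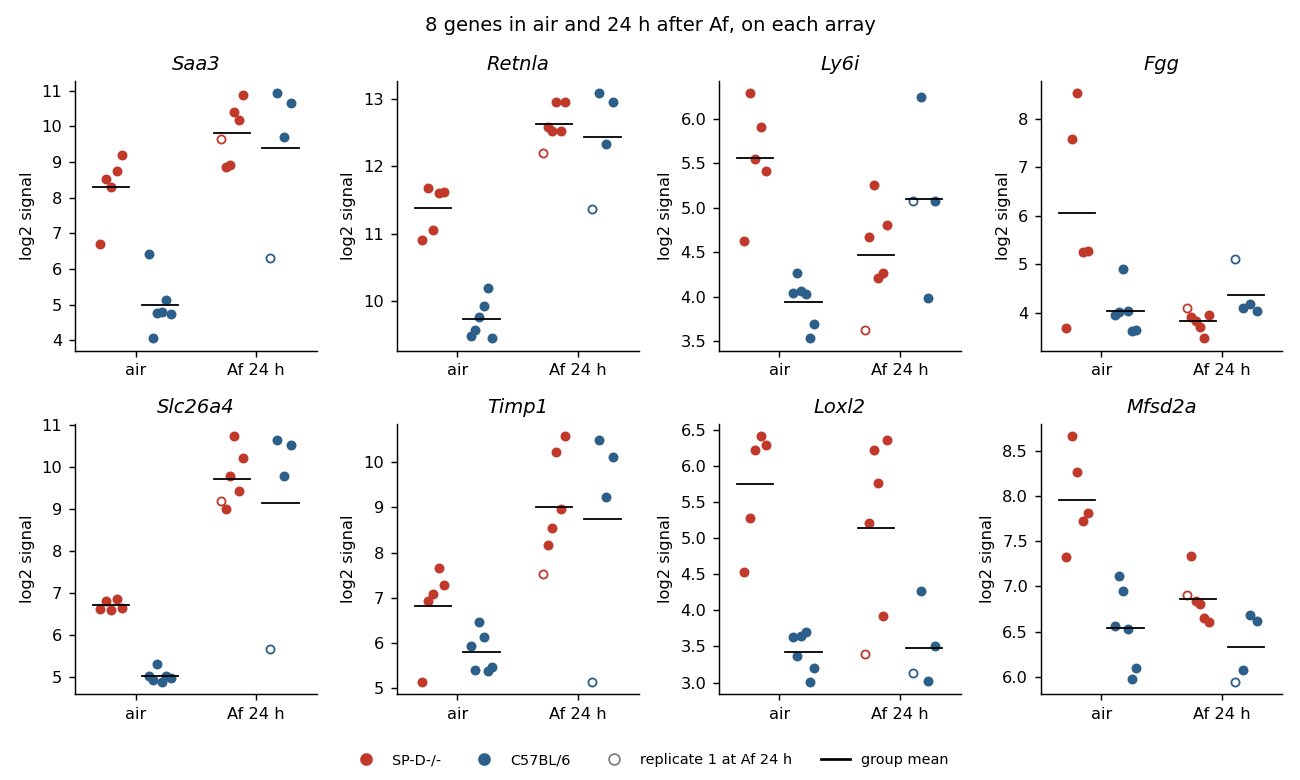
Log2 signal (y axis, a scale of its own in each panel) of 8 genes in air and 24 h after Af (x axis) on SP-D-/- (red, left) and C57BL/6 (blue, right) arrays, 1 point an array, with group means as black bars and replicate 1 of each 24 h group as an open point. Saa3, Retnla and Slc26a4 were apart between the strains in air and overlapped at 24 h, where C57BL/6 replicate 1 lay at 6.31 in Saa3 and 5.67 in Slc26a4.

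Across 44 gene lists of pathways and cell types, Sftpd was the only member called of 551 distinct genes tested, and 57 (10.3%) had an unadjusted p under 0.05, the same share as among all genes (10.3%). The medians of the lists ran from -0.56 to 0.73, against 0.04 for all genes, and 15 of the 44 changed sign without C57BL/6 replicate 1. The mean level of the genes separated the groups in 1 list, the collectin list, which holds Sftpd. Its 11 tested genes had a mean level of 5.642 to 6.131 in SP-D-/- lungs and 6.135 to 6.585 in C57BL/6 lungs.

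Genes of the allergic response did not pass the test. Among 16 type 2 cytokines, receptors and eosinophil attractants, 1 was higher and 1 lower at an unadjusted p under 0.05, with a median of -0.02. Among all genes 6.46% were higher and 3.82% lower. There were 0 higher and 1 lower without C57BL/6 replicate 1, against 1.78% and 1.23% of all genes, and the median was -0.14. Il13ra1, a receptor chain for IL-13, had 6.38, 7.68 and 7.93 in SP-D-/- lungs, against 3.27, 7.67, 4.67 and 6.72 in C57BL/6 lungs (difference 1.89, adjusted p 0.267, and 1.12 without replicate 1). Il4, the cytokine that drives class switching to IgE, had 3.83, 3.94 and 4.23 in SP-D-/- lungs, against 5.92, 4.38, 3.88 and 4.11 in C57BL/6 lungs. That difference of -0.58 was -0.13 without C57BL/6 replicate 1, with that array the only one above the rest by over 1 unit. Il13 (chosen after its values were seen) had 4.10, 4.94 and 5.55 in SP-D-/- lungs, against 5.42, 6.05, 5.10 and 5.0 in C57BL/6 lungs. Its difference was -0.52 ± 0.27 with that array and -0.51 without it, and it did not pass the test (adjusted p 0.502). Ccl24, an eosinophil attractant (likewise chosen), had 3.92, 5.85 and 8.22 in SP-D-/- lungs, against 4.85, 8.41, 6.73 and 6.84 in C57BL/6 lungs, a spread within each group wider than the difference of -0.61, which was -1.23 without C57BL/6 replicate 1.

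The 16 genes of alternatively activated macrophages had 14 members above 0 and a median of 0.15, which was -0.17 without C57BL/6 replicate 1. Their mean level was 7.29 to 8.76 in SP-D-/- lungs and 6.41 to 8.99 in C57BL/6 lungs. Socs2, an inhibitor of growth-hormone and cytokine signalling, differed by 0.85 (adjusted p 0.381) and F13a1, the coagulation factor XIII chain of macrophages, by 0.93 (adjusted p 0.585); without that array they differed by 0.07 and -0.004. Arg1 and Chil3, the arginase and chitinase-like markers of this state (chosen after their values were seen), differed by 0.08 ± 0.59 and 0.11 ± 0.42, and by -0.83 and -0.06 without that array. Of 13 goblet and mucus genes, 4 lay above 0, with a median of -0.20 that was -0.01 without that array. Muc5ac, the gel-forming mucin of goblet cells, had 3.87, 4.71 and 5.39 in SP-D-/- lungs, against 9.66, 4.76, 4.99 and 4.61 in C57BL/6 lungs, and its difference of -1.30 was -0.08 without C57BL/6 replicate 1. Agr2, which folds mucins, differed by 0.91 (adjusted p 0.596).

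Acute-phase genes and metallothioneins had 8 of 11 members above 0 and a median of 0.25, which was -0.40 without C57BL/6 replicate 1. Their mean level was 6.62 to 8.47 in SP-D-/- lungs, against 5.69 on C57BL/6 replicate 1 and 7.21 to 8.71 on the other 3 C57BL/6 arrays. Saa1 differed by -0.55 (adjusted p 0.597) and Mt1, a metallothionein, by 0.44 (adjusted p 0.614). Without that array Saa1 differed by -0.68 and Mt1 by -0.08. Among 15 inflammatory chemokines and cytokines the median was 0.05, or -0.18 without that array. The macrophage chemokines Ccl3 and Ccl4 differed by 0.50 and 0.48 (adjusted p 0.525 and 0.535), and by 0.24 and 0.29 without it. Il33, the alarmin of epithelium (chosen after its values were seen), differed by 0.72 ± 0.64, and by -0.41 without C57BL/6 replicate 1.

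In 3 lists of metabolism and tissue structure more members were higher than lower at an unadjusted p under 0.05. Other lists did the same, among them the endothelial list with 2 higher and 0 lower of 19. Among all genes 6.46% were higher and 3.82% lower, and the cholesterol list lay near that share of higher genes. The counts of higher members in the 3 lists fell without C57BL/6 replicate 1, where the shares of all genes were 1.78% and 1.23%. The 19 genes of the NRF2 antioxidant response had 6 higher and 1 lower, 17 above 0 and a median of 0.41. Without C57BL/6 replicate 1 there were 2 higher and 0 lower, with a median of 0.33. Gpx2, an epithelial glutathione peroxidase, had 6.39, 6.65 and 7.71 in SP-D-/- lungs, against 5.56, 5.67, 4.85 and 6.58 in C57BL/6 lungs. Only the highest C57BL/6 value reached the SP-D-/- range, and the difference was 1.12 ± 0.36 (adjusted p 0.238), or 1.08 without C57BL/6 replicate 1. Me1, the malic enzyme that makes NADPH, had 8.90, 9.18 and 9.91 in SP-D-/- lungs, against 7.92, 8.60, 8.02 and 9.13 in C57BL/6 lungs (difference 0.84 ± 0.28, adjusted p 0.28).

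Other members of the NRF2 list, chosen after their values were seen, did not all go the same way. Nqo1, a quinone reductase, differed by 1.00 ± 0.47 and Srxn1, which repairs peroxiredoxins, by 0.69 ± 0.33. Hmox1, heme oxygenase 1, lay the other way at -0.54 ± 0.25. Txnrd1, thioredoxin reductase, differed by 0.28 ± 0.22. Gclc, the rate-limiting enzyme of glutathione synthesis, had 7.30, 9.01 and 9.42 in SP-D-/- lungs, against 4.12, 9.06, 8.91 and 9.29 in C57BL/6 lungs, and its difference of 0.82 was -0.42 without C57BL/6 replicate 1. None of these passed the test.

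In the list of cholesterol and fatty acid synthesis 17 genes were tested. Among them Tom1l2 stood in for Srebf1, to which it was matched through gene synonyms, so Srebf1 itself was not tested. The list, with Tom1l2 counted, had 1 higher and 0 lower, 15 members above 0 and a median of 0.32. There were 0 higher and 1 lower without C57BL/6 replicate 1, with a median of 0.23. Idi1, an isomerase of this pathway, differed by 0.98 (adjusted p 0.483) and Insig1, its sterol-sensing brake, by 0.62 (adjusted p 0.429), and without that array they differed by 0.39 and 0.43. The 18 matrix and fibroblast genes had 4 higher and 0 lower at an unadjusted p under 0.05, and a median of 0.45. Without that array there were 1 higher and 0 lower, with a median of 0.18. Acta2, smooth muscle actin, had 9.78, 10.23 and 10.63 in SP-D-/- lungs, against 7.51, 9.36, 9.88 and 9.95 in C57BL/6 lungs (difference 1.02, adjusted p 0.348, and 0.46 without replicate 1). Epcam, an adhesion protein of epithelium (in no list described here and chosen after its values were seen), had 7.58, 8.52 and 9.20 in SP-D-/- lungs, against 3.26, 7.18, 7.04 and 8.03 in C57BL/6 lungs. Its difference of 2.16 ± 0.51 fell short of the threshold (adjusted p 0.06) and was 1.12 without replicate 1.

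The clock list holds the daily oscillator and its outputs, and also counts Sphk2, a neighbour gene of Dbp. Sphk2 (chosen after its values were seen) differed by -0.74, and by 0.71 on its other probe set. In this list 3 of 17 genes were higher and 4 lower at an unadjusted p under 0.05, against 6.46% and 3.82% of all genes. The median was -0.07. Without C57BL/6 replicate 1 there were 1 higher and 3 lower, against 1.78% and 1.23% of all genes. Dbp, a clock-driven transcription factor, had 4.17, 4.43 and 5.44 in SP-D-/- lungs, against 7.26, 5.48, 5.31 and 5.21 in C57BL/6 lungs. Of the 6 SP-D-/- values, 5 lay below all 4 C57BL/6 values. The difference was -1.25 ± 0.36 (adjusted p 0.167), or -0.77 without C57BL/6 replicate 1, and -1.37 with an adjusted p of 0.0258 in the spike-adjusted fit. Clock, the activator of the oscillator, had 6.82, 7.89 and 8.06 in SP-D-/- lungs, against 4.14, 7.56, 5.11 and 6.88 in C57BL/6 lungs (difference 1.81 ± 0.56, adjusted p 0.215). Per3, which represses it (chosen after its values were seen), differed by -0.75 ± 0.35. The labels used here give no time of day.

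Of 15 immediate early genes, 1 was lower at an unadjusted p under 0.05 (3.82% of all genes were), with a median of -0.32. Without C57BL/6 replicate 1 there were 5 lower (1.23% of all genes were), with a median of -0.43. Fosb had 3.65, 4.02 and 4.66 in SP-D-/- lungs, against 4.72, 4.98, 5.39 and 4.17 in C57BL/6 lungs (difference -0.75 ± 0.26, adjusted p 0.313). Klf4 differed by 0.79 (adjusted p 0.531), and by 0.20 without C57BL/6 replicate 1. Fos and Egr1 (chosen after their values were seen) differed by -0.57 and -0.54, and by -0.97 and -1.05 without that array.

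Receptors and partners through which SP-D acts on cells showed 0 of 15 members at an unadjusted p under 0.05, against 10.3% of all genes. The lipopolysaccharide receptor gene Tlr4 differed by 0.73 ± 0.65, or 0.23 without C57BL/6 replicate 1, and Bgn, a matrix proteoglycan, by -0.32 ± 0.32. Among 17 fungal and pattern recognition receptors the median was 0.05. Clec7a, which encodes dectin-1, the receptor for fungal beta-glucan, had 8.12, 8.86 and 9.01 in SP-D-/- lungs, against 8.69, 8.68, 6.21 and 7.91 in C57BL/6 lungs. The difference of 0.82 ± 0.38 did not pass the test (adjusted p 0.452), and here C57BL/6 replicate 4, not replicate 1, was the low array. Clec4d, another C-type lectin receptor for fungi, differed by 0.93 (adjusted p 0.51), and by 0.19 without C57BL/6 replicate 1.

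In the 15 complement genes 2 were lower at an unadjusted p under 0.05 (3.82% of all genes were). Without C57BL/6 replicate 1 there was 1 (1.23% of all genes). C6, of the membrane attack complex, had 7.68, 7.94 and 8.58 in SP-D-/- lungs, against 8.99, 8.35, 9.20 and 8.35 in C57BL/6 lungs (difference -0.66 ± 0.26, adjusted p 0.366). Cfb, factor B of the alternative pathway, differed by -0.68 ± 0.32 (adjusted p 0.453). Of 17 interferon-stimulated genes, Zbp1, a sensor of nucleic acids, had 5.67, 6.07 and 6.58 in SP-D-/- lungs, against 6.41, 6.92, 6.40 and 7.27 in C57BL/6 lungs. Its difference was -0.64 ± 0.25 (adjusted p 0.378), or -0.75 without C57BL/6 replicate 1. Iigp1, an interferon-induced GTPase, lay the other way at 1.28, or 0.57 without that array. At an unadjusted p under 0.05 the list had 1 higher and 1 lower, against 6.46% and 3.82% of all genes, with a median of -0.05. Without that array it had 0 higher and 3 lower, against 1.78% and 1.23% of all genes, with a median of -0.28.

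Genes of lipid-laden macrophages and lysosomes, which relate to the foamy macrophages that SP-D-/- mice are known for, had 3 of 18 members higher and 0 lower at an unadjusted p under 0.05, against 6.46% and 3.82% of all genes, and 0 either way without C57BL/6 replicate 1. Cd36, a scavenger receptor for oxidized lipid, had 8.70, 9.02 and 9.57 in SP-D-/- lungs, against 6.72, 9.39, 8.10 and 8.53 in C57BL/6 lungs. Plin2, the coat protein of lipid droplets, had 9.20, 9.53 and 9.98 in SP-D-/- lungs, against 6.99, 9.48, 9.19 and 9.43 in C57BL/6 lungs. Their differences of 0.88 and 0.80 (adjusted p 0.383 and 0.409) were 0.40 and 0.20 without C57BL/6 replicate 1, and the list's median of 0.14 was 0.02. Mmp12, the macrophage elastase (chosen after its values were seen), had 3.16, 6.34 and 6.85 in SP-D-/- lungs, against 3.66, 6.77, 3.97 and 6.27 in C57BL/6 lungs, a difference of 0.76 ± 0.87, or 0.26 without C57BL/6 replicate 1.

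**Figure D5:**
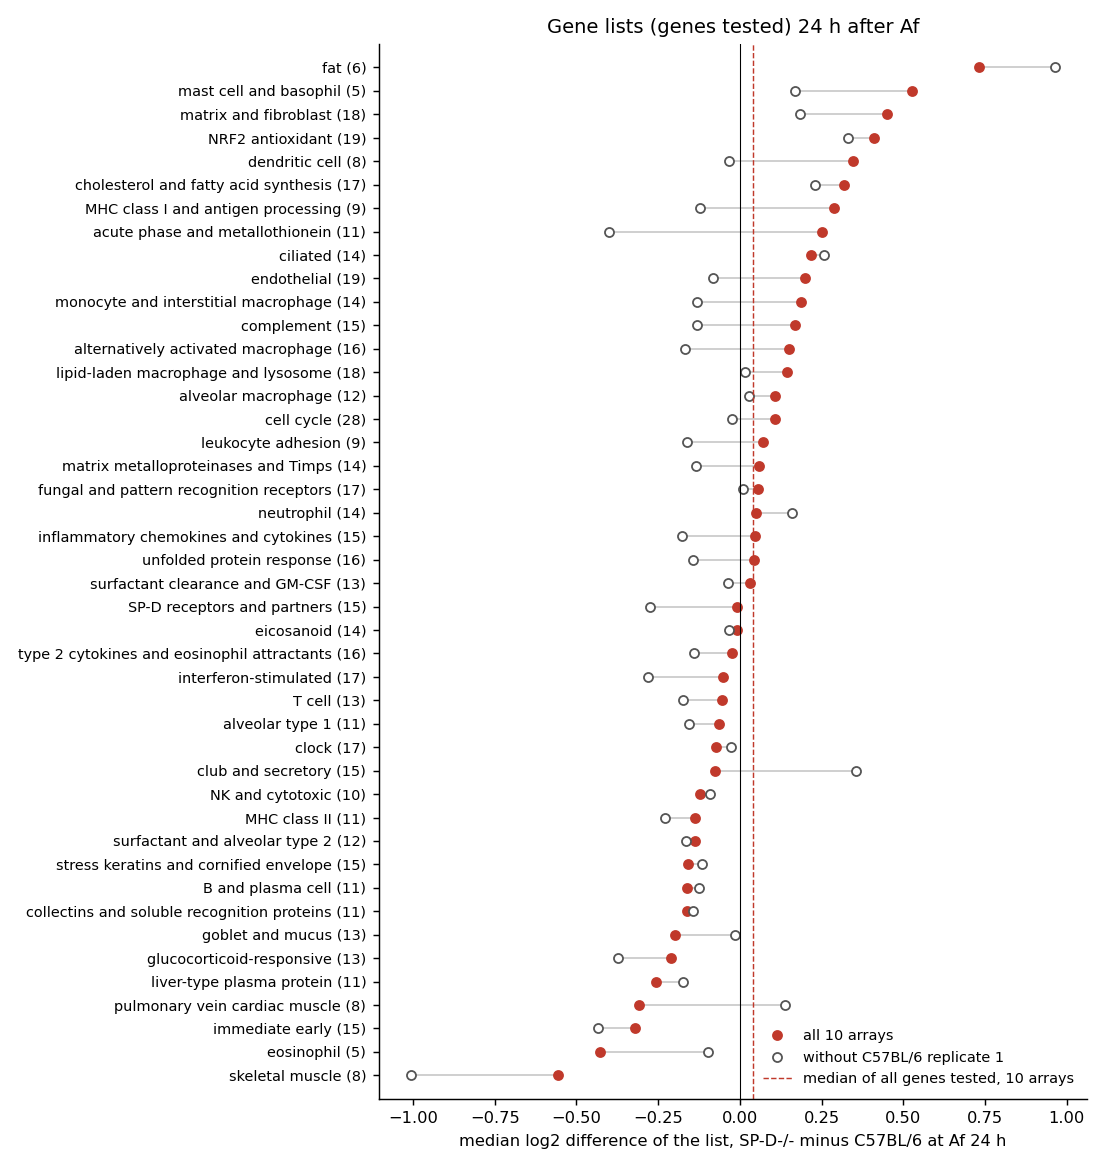
Median log2 difference of each of 44 gene lists between SP-D-/- and C57BL/6 lungs 24 h after Af (x axis, positive where SP-D-/- is higher) with all 10 arrays (filled) and without C57BL/6 replicate 1 (open), with the number of genes tested in brackets. The dashed line is the median of all genes (0.04). The lists ran from -0.56 (skeletal muscle) to 0.73 (fat), and the acute-phase list moved from the right of 0 to its left without that array.

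Markers of other cell types varied between arrays of the same group. None of the 6 to 8 members of the fat and muscle lists was called. The 8 skeletal muscle genes had a mean level of 3.90 to 8.56 in SP-D-/- lungs and 4.27 to 9.20 in C57BL/6 lungs, where Tnnt3, fast skeletal troponin T, reached 10.82 on SP-D-/- replicate 1 and 10.75 on C57BL/6 replicate 6 and lay between 3.96 and 6.08 on the other 8 arrays. The 6 fat genes had a mean level of 4.23 to 7.61 in SP-D-/- lungs and 4.14 to 4.68 in C57BL/6 lungs. Fabp4, the fatty acid binding protein of fat cells and macrophages, had 7.86, 8.46 and 11.31 in SP-D-/- lungs, against 7.18, 7.41, 6.22 and 8.71 in C57BL/6 lungs, and Retn, resistin, differed by 0.80. Both were highest on SP-D-/- replicates 1 and 2. The part of these tissues in the differences of single genes was not tested.

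The 11 liver-type plasma protein genes had a mean level of 4.20 to 4.45 in SP-D-/- lungs and 4.24 to 4.86 in C57BL/6 lungs, with a median difference of -0.26, and Apoa1, the main apolipoprotein of HDL, differed by -0.72 (adjusted p 0.655), or -0.32 without C57BL/6 replicate 1. In air, the median of this list was 2.03 and 10 of its 11 genes were higher in SP-D-/- lungs at an unadjusted p under 0.05 (0.982% of all genes were). The 10 were read on the same 5 SP-D-/- arrays and are not separate results. For Apoa1 these arrays had a median of 4.55 and a highest value of 9.77, against a median of 4.76 in C57BL/6 lungs in air. Not all of them thus carried its difference, and the spread of Fgg on these arrays is given above. The 5 tested eosinophil genes had a median of -0.43, which was -0.10 without C57BL/6 replicate 1. Epx, eosinophil peroxidase, was at or below the level of 4.45 on all 10 arrays, with 2.95, 3.92 and 4.21 in SP-D-/- lungs, against 4.45, 4.10, 4.12 and 4.25 in C57BL/6 lungs. Il5ra, the IL-5 receptor chain of eosinophils, differed by -0.49, and by -0.10 without that array. The 14 neutrophil genes had a median of 0.05 (0.16 without that array), and Ltf, lactoferrin of neutrophil granules, had 4.67, 5.45 and 7.09 in SP-D-/- lungs, against 9.71, 5.11, 7.89 and 4.83 in C57BL/6 lungs. Its difference of -1.13 was -0.18 without C57BL/6 replicate 1.

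Defining markers of alveolar type 2, alveolar type 1, club, ciliated and endothelial cells were checked against the presence level over both groups together. Each marker read was above it on at least 1 of the 10 arrays, except Dnah5 of ciliated cells, which was below it on all 10 arrays. Lamp3 and Sftpb of type 2 cells and Rtkn2 of type 1 cells were not named by the annotation and were not read. The mean level of the 3 type 2 markers was 8.54 to 9.59 in SP-D-/- lungs and 8.97 to 9.35 in C57BL/6 lungs. That of the 5 endothelial markers was 7.42 to 8.81 in SP-D-/- lungs and 7.16 to 8.73 in C57BL/6 lungs, with C57BL/6 replicate 1 the lowest of all 10 at 7.16. None of the markers of the 17 cell types examined was called.

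Beside the 13 genes at 24 h and the 10 in air, 120 genes were called after ozone (0.797%), 2435 at 96 h with ozone (16.2%), 3 at 168 h (0.0199%) and 76 at 168 h with ozone (0.504%). In the spike-adjusted fit the counts were 14 in air, 113 after ozone, 420 at 96 h with ozone, 6 at 168 h and 335 at 168 h with ozone, against 30 at 24 h. The exposures use different arrays in both strains, and the numbers of arrays differ. Of the 13 genes called at 24 h, those called in the same direction elsewhere were Ctr9 and Sftpd in all 5 other exposures and Nnt after ozone and at 96 h with ozone.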

How the data were processed

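Each of 89 Affymetrix HT Mouse430PM arrays gives a log2 signal for 45141 probe sets; per the labels' protocols, left-lobe RNA was amplified with a NuGEN kit. The deposited log2 values run from 1.86 to 13.5 with the same median and quartiles on every array, so the authors normalized between arrays; the software and background correction are not given in the sources used here, and genes were not centred. The platform annotation named 28898 probe sets with 1 symbol (551 with several, 15692 with none). Each of 17097 genes was represented by its probe set of highest mean, and 15065 above log2 4.45 (40th percentile) on at least 4 arrays were tested.

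A mean for each of 18 groups entered 1 linear model over the 89 arrays (limma 3.58.1, R 4.3.3; Python 3.11.15 for tables and figures), two-sided, with Benjamini-Hochberg adjustment over all genes tested; "called" means an adjusted p under 0.05. Errors beside differences are SE of the fit. Named genes were Sftpd, Ctr9, Loxl2, up to 14 largest rises and falls among called genes, the 2 smallest p of each list described without a call, and the 3 smallest p of the change from air; others are marked in the text. The members and lists were chosen with earlier results of these data known. Alternatives were cyclic loess, mean of probe sets, no filter, fewer groups, array weights, a replicate block, the spike level and actin difference as covariates, and leaving out arrays. The fit was tested on simulated data.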

Additional observations from a re-analysis of the deposited data

Results flagged for a closer look

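In 170 groups of values, 23 had a highest or lowest array that stood apart from the rest of its group by Dixon's ratio at the 95% level, which chance gives in about 1 of 20. Of these, 7 were in C57BL/6 lungs, 6 of them on replicate 1, and 16 in SP-D-/- lungs, 12 of them on replicate 1.

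On SP-D-/- replicate 1, the signal lay below the other 5 SP-D-/- arrays in 8 genes: Ctr9 at 8.03 (others 8.70 to 8.98), Vps4b at 7.96 (8.88 to 9.25), Clock at 6.82 (7.70 to 8.06), F13a1 at 5.77 (7.08 to 7.66), Bgn at 8.97 (10.1 to 10.75), Il33 at 7.92 (9.08 to 9.72), Lcn2, a neutrophil and epithelial siderophore-binding protein, at 8.15 (9.5 to 10.13), and Mmp12 at 3.16 (6.11 to 6.85). Sftpc was also low there, at 12.07 (12.65 to 12.96). The same array lay above the others in Tnnt3 at 10.82 (3.96 to 4.83), Myh2, a fast muscle myosin, at 4.84 (2.99 to 3.60) and Gpx2 at 7.71 (6.39 to 6.82). In 4 further genes another SP-D-/- array stood apart: Dbp on replicate 2 at 5.44 (4.17 to 4.62), Cse1l on replicate 4 at 7.87 (7.39 to 7.56), Il13ra1 on replicate 5 at 6.38 (7.47 to 7.93) and Cul2 on replicate 6 at 7.67 (7.43 to 7.51).

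On C57BL/6 replicate 1, Muc5ac at 9.66 lay above the other 3 C57BL/6 arrays (4.61 to 4.99), as did Dbp at 7.26 (5.21 to 5.48) and Fgg at 5.12 (4.04 to 4.18). Gclc at 4.12 (8.91 to 9.29), Plin2 at 6.99 (9.19 to 9.48) and Ccl4 at 4.60 (5.35 to 5.39) lay below them. On C57BL/6 replicate 6, Myh2 stood at 9.64 against 3.04 to 3.45 on the other 3. What sets these arrays apart was not tested.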

How the results depend on the processing

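Sftpd was lower and called under all 22 alternatives (-3.75 to -3.33). The 13 calls at 24 h became 3 with the mean of probe sets, 2 with only the 2 groups, 3 without the BALB/c arrays, 367 with array weights (C57BL/6 replicate 1 had a weight of 0.077), 19 without the 5 arrays against their label, 30 when the spike level was also a covariate, and 42 when the actin difference was added. These 2 settings were chosen after seeing the data: without the least correlated array of each group 3 genes were called, and with the spike level and without C57BL/6 replicate 1 also 3. Leaving out 1 array gave 3 to 268. The causes were not tested. Ctr9 and Nnt each lost the call under 1 of 22 alternatives, with differences of 0.43 to 2.53 and 1.02 to 2.26. Of the 13 genes, 9 were among the 367 and all 13 among the 30 and the 42. The change from air had 0 calls, 402 with array weights, 1 with the spike level, 1 with the actin difference too, 1 without the least correlated arrays, 2 with the spike level and without C57BL/6 replicate 1, and 0 to 2 leaving out 1 array (Saa3 without C57BL/6 replicate 1, Cse1l and Vps4b without replicate 3, Fgg without SP-D-/- replicate 2 in air). No value changed sign past the threshold. Whether the replicate numbers pair the arrays cannot be told from 4 same-numbered pairs. Of these, 3 had residual correlations over 0.1 (mean 0.257, lowest -0.313), against a mean of -0.028 for differently numbered pairs. Only 1 of the 4 C57BL/6 arrays correlated best with its own number. With a replicate block 15 genes were called, 13 of them the same, Sftpd at -3.46, with 0 for the change from air. Cyclic loess gave 9 and no filter 13. The 4 C57BL/6 arrays, 1 of them far from the rest, limit the precision.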
